A study of Caenorhabditis elegans with 6 samples.

Results

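The groundhog (grd), ground-like (grl), quahog (qua-1) and hog-only (hog-1) genes of Caenorhabditis elegans encode secreted proteins related to Hedgehog. They were taken by symbol, as all genes named grd- or grl- plus hog-1 and qua-1, and each was read by its brightest probe set, judged by the mean of all 6 arrays. A probe set is the group of short oligonucleotides on the array that together read 1 transcript. Of 51 such genes in the gene table, 44 were measured, among 17118 genes with a probe set of their own. These 44 were 12 groundhog genes, 30 ground-like genes, hog-1 and qua-1. The protein-coding genes grd-4, grd-6, grd-13, grd-15 and grl-26 and the pseudogenes grd-17 and grl-32 were not measured by a probe set of their own.

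The samples were synchronized larvae of the wild-type strain N2, labelled as L2. All were fed HT115 bacteria from the L1 stage for 21 hours at 20 C on plates of 2% agarose. The 3 control samples received bacteria with the empty RNAi vector L4440, which the labels describe as making short nonspecific dsRNA (double-stranded RNA). The 3 RNAi-labelled samples received bacteria making dsRNA against nhr-23 from the same vector, labelled as its LBD. Knockdown was by feeding, so no group carries a mutation. Each sample is RNA of a whole population of larvae, so fewer cells of a type and less RNA per cell cannot be told apart. The titles number the arrays 1 to 3 in both groups and call them biological replicates. The labels do not say whether a number stands for separate cultures or for a shared day, so p-values measure the spread between these samples.

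In flies and vertebrates, Hedgehog is a secreted signal that its own carboxy-terminal Hog domain cuts and joins to a sterol, and that is received by Patched. C. elegans has no true Hedgehog protein and no Smoothened, but large families of proteins in which a Hog domain, or a nematode-specific amino-terminal domain, has been kept. Warthog proteins carry a wart domain, groundhog proteins a ground domain and ground-like proteins a related cysteine-rich domain, mostly without Hog. Many of these genes are expressed in epidermis, glia and other cells that secrete cuticle, and several are needed for molting or are expressed in step with the molting cycle. The nuclear hormone receptor NHR-23, related to the vertebrate ROR receptors, is itself needed for molting. The comparisons asked how transcripts of the family differed between RNAi-labelled and control larvae, and between arrays of different replicate number.

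The deposited values are log2 expression values per probe set, with array medians between 5.12 and 5.18. The 2 probe sets of nhr-23 went in opposite directions. The one brighter in controls read 8.27, 8.12 and 7.74 in control arrays 1 to 3 and 7.67, 7.47 and 7.52 in the RNAi-labelled arrays. The other read 6.60, 6.56 and 5.80 in controls and 8.76, 9.61 and 8.76 in the RNAi-labelled arrays. Its log2 difference was 2.72 (limma adjusted p = 0.993 by group alone, and 0.037 in a fit that also held replicate number). That of the first was -0.49 (0.993 and 0.406). Which part of nhr-23 each one reads, and whether either reads the fed dsRNA, is not known here. If the second reads the transcript of the larvae, it goes against the label, so every direction given is that of arrays by their label. Of 32 measured marker genes of larval tissues, germline and adults, 28 lay above 5.16, the median of all probe sets. The exceptions were hlh-1 of muscle, the adult collagen gene col-19 and the yolk protein genes vit-2 and vit-5.

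A probe set's brightness depends on its sequence, so values are compared here between arrays and not between genes. Of the 44 members, 19 had a mean above the median of all probe sets. These were 7 groundhog genes, 10 ground-like genes, hog-1 and qua-1. The other 25 lay below it, with means over the 6 arrays from 2.64 for grl-24 to 4.95 for grl-2. Signal over background is not known here, so differences of dim probe sets may be understated. No member was left out for low values.

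Ground-like genes, groundhog genes and qua-1 were among the members with lower values in the RNAi-labelled arrays, led by grl-15 and grl-7, but 0 of 44 passed the test. In the mean, 26 of the 44 members had lower values in RNAi-labelled arrays and 18 had higher ones, 59.1% lower against 44.3% of all genes. The median log2 difference of the members was -0.08, against 0.02 for all genes, and without control replicate 3 it was 0.02. Among the 19 members above the median of all probe sets 14 were lower, against 47.1% of all genes above it. By limma's moderated test with group as the only term, the smallest adjusted p was 0.993, and 0% of all genes passed. At an unadjusted p under 0.05 there were also 0 members, against 3.62% of all genes. Both groundhog genes (5 of 12 lower, median 0.06) and ground-like genes (19 of 30 lower, median -0.09) held members of either sign.

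Differences between arrays of the same number gave a second view of the same values. In pairs 1, 2 and 3, 28, 23 and 25 of the 44 members were lower in the RNAi-labelled array, against 50.5%, 45.1% and 42.8% of all genes. Of the members, 11 (25%) were lower there in all 3 pairs, against 10.7% of all genes, and 6 (13.6%) were higher in all 3, against 16.8%. The 11 were grl-15, grl-7, qua-1, grd-5, grd-14, grl-10, grl-12, grd-12, grl-2, grl-3 and grl-8. Some of their pair differences were near 0, such as -2e-04 for grd-12 in pair 3 and -0.0029 for grl-2 in pair 2. With the replicate number added as a block, 0 members passed (smallest adjusted p among them 0.202, for grd-14), while 1 of all genes passed, 0.00584%. At an unadjusted p under 0.05 that fit gave 8 members, against 5.90% of all genes. All 8 were lower, against 3.54% of all genes. These 8 were grd-14, grl-15, grd-5, grl-7, grl-12, qua-1, grl-10 and grl-5.

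**Figure D1:**
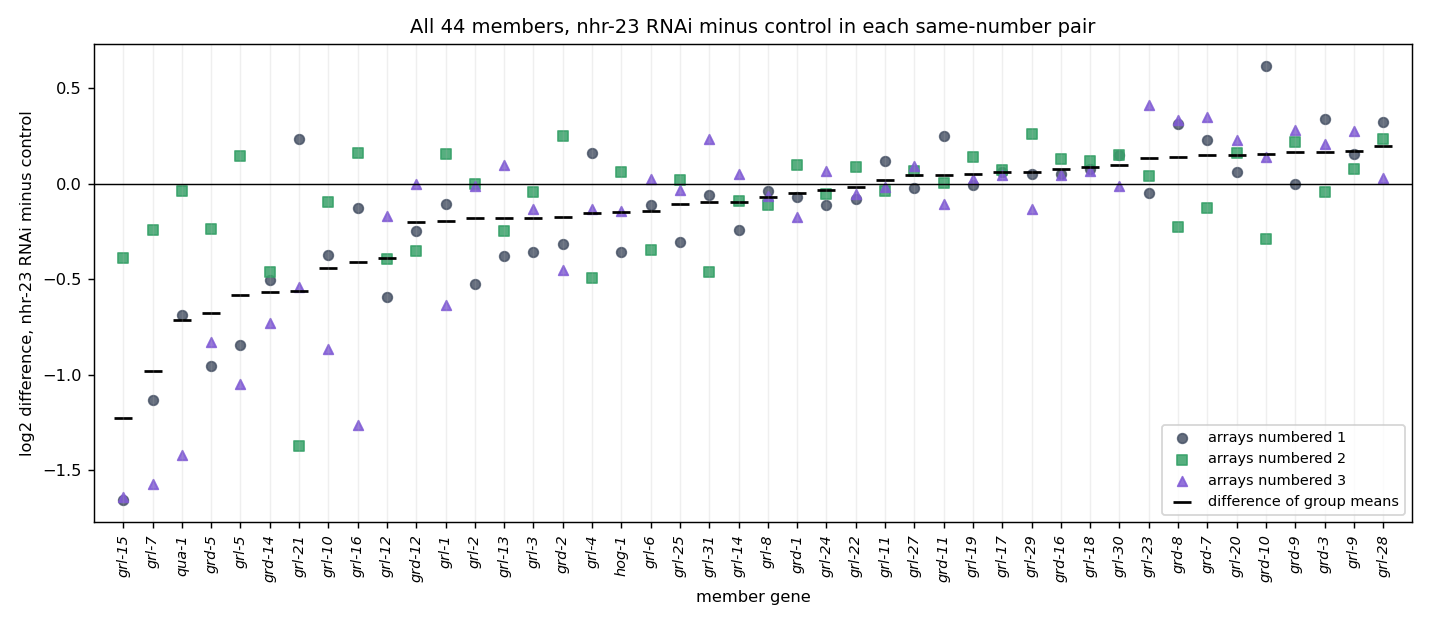
The log2 difference between the RNAi-labelled and the control array of the same number, for all 44 members, ordered by the difference of the group means (black dashes). At the left, grl-15 and grl-7 were lower by more than 1 in the pairs numbered 1 and 3 and by less than 0.5 in the pair numbered 2, while most members lay within 0.5 of 0.

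The quahog gene qua-1, which carries a Hog domain and is needed for molting, read 9.33, 9.15 and 7.70 in control arrays 1 to 3. In the RNAi-labelled arrays it read 8.64, 9.11 and 6.28. The array numbered 3 was the lowest of its group in both groups, and the groups overlapped. Controls had a mean of 8.73 ± 0.90 (SD, n = 3), and the RNAi-labelled arrays one of 8.01 ± 1.52 (SD, n = 3), a log2 difference of -0.71 (SE 0.79, limma adjusted p = 0.993). Within the pairs it was -0.68, -0.04 and -1.42. Without RNAi replicate 3 the difference was 0.15. The gene hog-1, which encodes a Hog domain without a ground or wart domain, read 6.70, 6.39 and 6.04 in controls and 6.34, 6.45 and 5.90 in the RNAi-labelled arrays. Its groups overlapped, with a log2 difference of -0.15 (SE 0.21).

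The largest difference among the members was that of the ground-like gene grl-15. It read 9.24, 9.12 and 8.27 in control arrays 1 to 3 and 7.58, 8.73 and 6.64 in the RNAi-labelled arrays. RNAi-labelled arrays 1 and 3 lay below every control, and array 2 lay between the controls. The means were 8.88 ± 0.53 (SD, n = 3) and 7.65 ± 1.05 (SD, n = 3), 2.34-fold lower in the RNAi-labelled arrays (log2 difference -1.23, SE 0.53, limma adjusted p = 0.993, and 0.299 with the replicate block). Without RNAi replicate 3 the log2 difference was -0.72, and without RNAi replicate 2 it was -1.77.

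The ground-like gene grl-7 was read by 2 probe sets, and both were lower in all 3 pairs. The brighter read 8.58, 8.71 and 8.27 in controls and 7.45, 8.47 and 6.70 in the RNAi-labelled arrays. The dimmer read 8.48, 8.50 and 8.21 in controls and 6.79, 8.32 and 6.15 in the RNAi-labelled arrays. In both, RNAi-labelled arrays 1 and 3 lay below every control and array 2 did not lie below all of them. Their log2 differences were -0.98 (SE 0.41) and -1.30 (SE 0.50), 1.97-fold and 2.47-fold lower. Both had a limma adjusted p of 0.993, and 0.427 and 0.494 with the replicate block. The difference of the brighter one was -0.56 without RNAi replicate 3 and -1.44 without RNAi replicate 2. Both probe sets end in _s_at, a type that can match more than 1 transcript.

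The same order of pairs was seen in grl-5, which read 8.49, 8.65 and 8.17 in controls and 7.65, 8.79 and 7.12 in the RNAi-labelled arrays. Its pair differences were -0.84, 0.14 and -1.05, and its log2 difference was -0.58 (SE 0.40). In grl-10 the pair differences were -0.37, -0.09 and -0.86. In grl-12, a probe set below the median of all, they were -0.59, -0.39 and -0.17, with values of 5.25, 5.03 and 4.23 in controls and 4.66, 4.63 and 4.06 in the RNAi-labelled arrays. The log2 difference of grl-12 was -0.39 (SE 0.29). Leaving out control replicate 3 gave -0.69, and leaving out control replicate 1 gave -0.18. The groups overlapped in all of these ground-like genes.

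Among groundhog genes, grd-5 and grd-14 were lower in all 3 pairs. The gene grd-5 read 7.83, 8.23 and 8.89 in control arrays 1 to 3 and 6.87, 7.99 and 8.06 in the RNAi-labelled arrays, a log2 difference of -0.67 (SE 0.39). Leaving out control replicate 1 gave -0.92, and leaving out RNAi replicate 1 gave -0.29. The gene grd-14 read 7.10, 8.17 and 9.13 in controls and 6.60, 7.71 and 8.40 in the RNAi-labelled arrays. In both genes array 1 was the lowest and array 3 the highest of its group, and the groups overlapped. Within pairs grd-14 differed by -0.50, -0.46 and -0.73, the most even differences among the members above the median that were lower in all pairs. Its log2 difference of -0.57 had an SE of 0.61 without the block and 0.09 with it. When control replicate 1 was left out it was -1.08, and when control replicate 3 was left out, -0.07. Its limma adjusted p was 0.993 and 0.202.

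Members with higher values in the RNAi-labelled arrays differed little. The largest such differences among those higher in all 3 pairs were 0.20 log2 for grl-28, 0.17 for grl-9, 0.15 for grl-20 and 0.09 for grl-18, a gene used as a marker of inner labial socket glia. Of these, only grl-9 lay above the median of all probe sets, at 5.91, 6.002 and 5.97 in controls and 6.06, 6.08 and 6.25 in the RNAi-labelled arrays. The values of grl-28 were 3.90, 3.93 and 3.90 in controls and 4.23, 4.17 and 3.94 in the RNAi-labelled arrays. Those of grl-20 were 4.26, 4.27 and 4.27, and 4.32, 4.43 and 4.50. In both of these probe sets every RNAi-labelled array lay above every control. A dimmer probe set of grl-20 read 3.79, 3.67 and 3.36 in controls and 3.81, 3.76 and 3.43 in the RNAi-labelled arrays. Its groups overlapped, with a log2 difference of 0.06, and replicate 3 was lowest in both groups. In grl-18 the groups overlapped, at 3.26, 3.40 and 3.34 in controls and 3.34, 3.51 and 3.41 in the RNAi-labelled arrays. The groups did not overlap in 6 of the 44 members, against 9.48% of all genes. In 2 of these the RNAi-labelled arrays were the lower ones, against 2.99% of all genes, and in 4 the higher ones, against 6.49%. Those lower were grd-12 and grl-8, and those higher were grd-16, grl-9, grl-20 and grl-28. The values of grd-12 were 4.56, 4.51 and 4.37 in controls and 4.31, 4.16 and 4.37 in the RNAi-labelled arrays, where array 3 lay just below control array 3. Their log2 differences ran from -0.20 for grd-12 to 0.20 for grl-28. Neither grl-15 nor grl-7 was among them.

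The pairs can be set beside each other, since they share no array. Across the 44 members the differences in pairs 1 and 3 had a Pearson r of 0.743 (Spearman rho 0.596), and pair 2 had an r of 0.108 with pair 1 and 0.162 with pair 3. Over all 17118 genes the values were 0.253, 0.242 and -0.083. These are descriptions across genes, which are not independent replicates and share their arrays. In qua-1, grl-5, grl-7, grl-10 and grl-15 the pair numbered 2 had the smallest difference. By contrast, grl-21 differed by 0.23, -1.37 and -0.54, with its lowest value in pair 2. Whether the difference itself varies between pairs could not be tested with 1 array of each group per number.

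**Figure D2:**
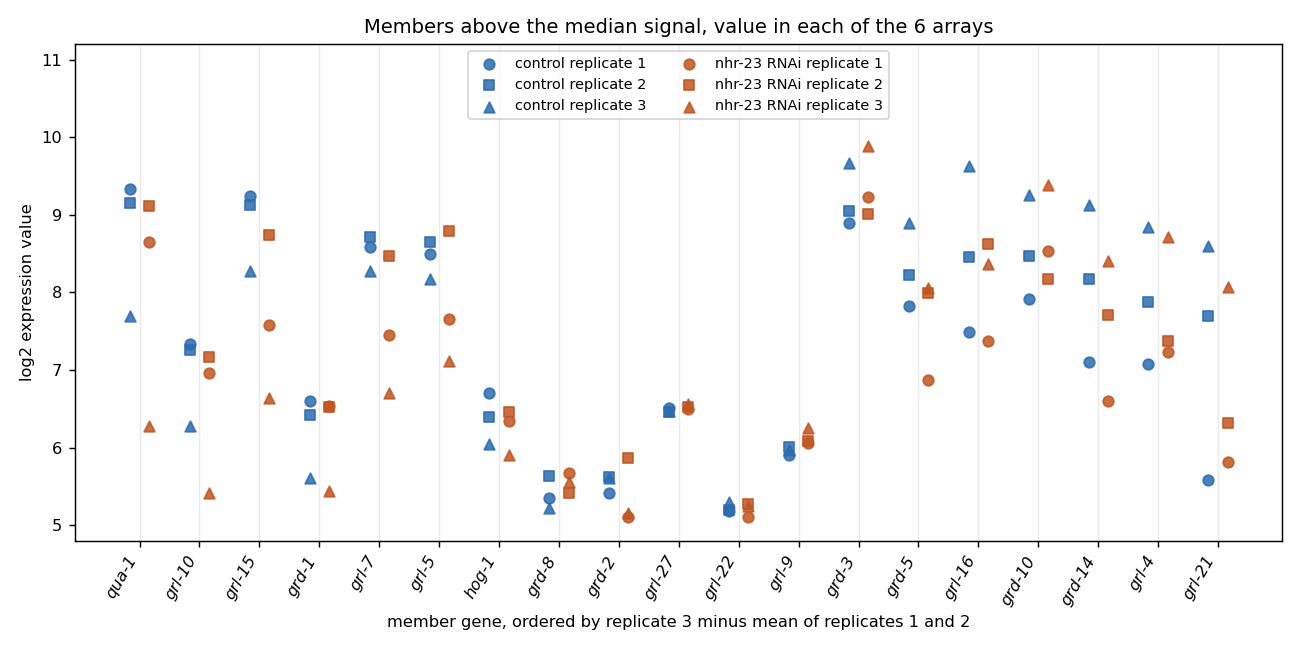
The log2 value in each of the 6 arrays for the 19 members above the median of all probe sets, with controls in blue and RNAi-labelled arrays in orange. Triangles mark replicate 3. From the left, qua-1 to grl-5 and hog-1 have both triangles below the other arrays of their group, and at the right grd-3, grd-5, grd-10, grd-14, grl-4 and grl-21 have both above them.

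More members passed the test by replicate number than by RNAi label, 8 against 0. Transcripts of qua-1, grl-10, grd-1 and grl-12 were lower, and those of grd-14, grl-4, grl-21 and grd-3 higher, in both arrays numbered 3. Each of these 8 passed limma's F-test of replicate number in a fit that also held group, adjusted over all probe sets. That is 18.2% of the 44 members, where 2.31% of all genes passed, 1.26% with replicate 3 lower and 1.06% with it higher. Closest to the threshold were grd-3 (limma F-test adjusted p = 0.0484) and grl-12 (0.0493). For members above the median the counts were 7 of 19, against 4.08% of all genes above it. In size, 8 members (18.2%) differed by over 1 log2 between replicate 3 and the mean of the other numbers, against 1.85% of all genes. Between the groups 1 did so (grl-15, 2.27% of the members), against 0.234%. At a log2 size over 0.5 there were 17 by number (38.6%) and 7 by group (15.9%), against 5.98% and 1.25% of all genes.

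The test rests on 2 arrays per number and depends on the arrays used. Without control replicate 1, 0 members passed by limma, against 0.351% of all genes, with 16 at an unadjusted p under 0.05, against 7.91%. Without RNAi replicate 1, 3 members passed, against 0.818% of all genes, and without control replicate 2, 16 did, against 6.09%. The share of all genes thus rose and fell with the count of members. With any one array left out, all 8 kept the direction of their replicate 3 difference. This had to be so, since replicate 3 was the lowest or the highest array in both groups in each of them. For that difference, the largest adjusted p without any one array was 0.0463 for grd-1, 0.0244 for grd-14 and 0.0307 for grl-4. It was 0.0674 for qua-1, 0.0632 for grl-10, 0.0705 for grl-21, 0.121 for grl-12 and 0.125 for grd-3. The probe sets of qua-1 and grl-4 end in _s_at, and without such probe sets 6 of 36 members passed, against 2.24% of the genes left. What the numbers share beyond the title was not tested. By position alone, replicate 3 was the lowest array in both groups in 12 members (27.3%), against 18.5% of all genes. It was the highest in both in 7 (15.9%), against 16.1%.

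The lower set was led by qua-1, whose values are given above. Both arrays numbered 3 lay below all of the other arrays, with a difference of -1.55 log2 in controls and -2.60 in RNAi-labelled arrays. Averaged over both groups, qua-1 was 4.21-fold lower in replicate 3 (log2 difference -2.07, SE 0.25, limma adjusted p = 0.00807). The ground-like gene grl-10 read 7.33, 7.26 and 6.28 in controls and 6.96, 7.16 and 5.41 in the RNAi-labelled arrays, and was 2.52-fold lower in replicate 3 (log2 difference -1.33, SE 0.16, limma adjusted p = 0.00784). The groundhog gene grd-1, which also encodes a Hog domain, read 6.60, 6.42 and 5.61 in controls and 6.53, 6.52 and 5.44 in the RNAi-labelled arrays. Its groups were nearly level, with a log2 difference of -0.05 (SE 0.37), while replicate 3 differed by -0.999 (SE 0.10, limma adjusted p = 0.00458). A dimmer probe set of grd-1, with a mean of 4.00 in controls, also had replicate 3 lowest in both groups, with a difference of -0.66 (limma adjusted p = 0.209).

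Other members with both replicate 3 arrays lowest did not pass. They were grl-15 (log2 difference -1.21, limma adjusted p = 0.0594), grl-7 (-0.82, 0.156), grl-5 (-0.75, 0.167), hog-1 (-0.50, 0.0696) and the excretory duct and pore gene grl-2 (-0.55, 0.0877). In grl-15, grl-7 and grl-5 the difference was larger in RNAi-labelled than in control arrays, at -1.52 against -0.90, -1.26 against -0.38 and -1.10 against -0.40. These differences between groups were not tested, since each rests on 1 array of replicate 3 per group. The remaining genes with replicate 3 lowest in both groups were grd-16, grl-28 and grl-30, with differences of at most 0.14 log2 in size.

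The higher set spanned both families. The ground-like gene grl-21 had, after qua-1, the widest range over the 6 arrays of the members, at 5.58, 7.69 and 8.60 in control arrays 1 to 3 and 5.82, 6.32 and 8.06 in the RNAi-labelled arrays. Array 1 was lowest and array 3 highest in both groups. Replicate 3 lay 3.94-fold above the mean of the others (log2 difference 1.98, SE 0.28, limma adjusted p = 0.0154), and replicate 1 differed by -1.97 (limma adjusted p = 0.0444). The ground-like gene grl-4 read 7.07, 7.87 and 8.84 in controls and 7.23, 7.38 and 8.71 in the RNAi-labelled arrays. Its replicate 3 difference was nearly the same in the groups, at 1.37 log2 in controls and 1.40 in RNAi-labelled arrays (combined SE 0.14, limma adjusted p = 0.0049).

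The groundhog gene grd-14 had the smallest p of the members, with replicate 3 2.59-fold higher (log2 difference 1.37, SE 0.10, limma adjusted p = 0.0021) and replicate 1 lower by a log2 difference of -1.50 (limma adjusted p = 0.0183). It combined this with the even difference between groups given above. The groundhog gene grd-3 read 8.89, 9.05 and 9.67 in controls and 9.23, 9.003 and 9.88 in the RNAi-labelled arrays, 1.66-fold higher in replicate 3. Its neighbour grd-10, a gene used as a seam cell marker, read 7.92, 8.46 and 9.25 in controls and 8.54, 8.17 and 9.39 in the RNAi-labelled arrays. For grd-10 the contrast of replicate 3 passed (log2 difference 1.04, limma adjusted p = 0.0277) and the F-test did not (adjusted p = 0.0717). The same held for grl-6 (0.58, 0.039 and 0.0987). In all, 10 members passed the contrast of replicate 3, against 3.91% of all genes. Of these, 4 were lower, against 1.94%, and 6 higher, against 1.97%. For replicate 1, 3 members passed, against 0.759% of all genes, and all 3 (grd-14, grl-4 and grl-21) were lower, against 0.386%. For replicate 2, 0 members passed by limma, against 0.0234% of all genes.

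**Figure D3:**
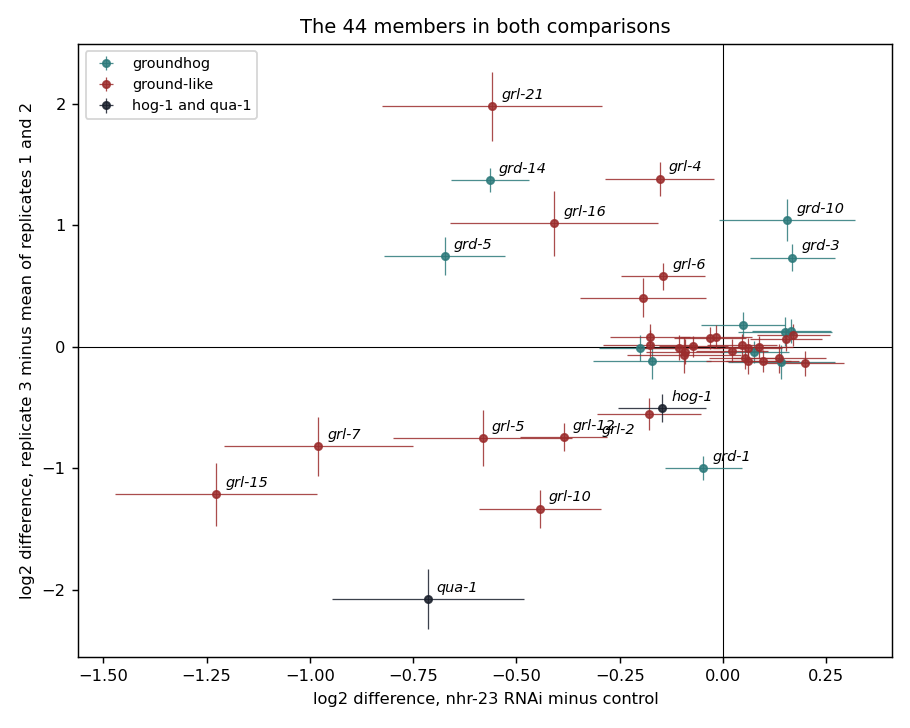
Each of the 44 members by its log2 difference between groups (horizontal) and between replicate 3 and the mean of the other numbers (vertical), with the SE of the fit that holds both group and number. The genes grl-15, grl-7 and qua-1 lie low on both axes, grd-14 and grd-5 lie low between groups and high in replicate 3, and grd-1 and grl-4 differ mainly by number.

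The comparisons by group and by number sorted the members differently. Of the 8 members with a block p under 0.05, grl-15, grl-7, qua-1, grl-10, grl-12 and grl-5 were lower both in RNAi-labelled arrays and in replicate 3. In contrast, grd-14 and grd-5 were lower in RNAi-labelled arrays and higher in replicate 3. The members grd-1, grd-3, grd-10 and grl-4 differed by number with log2 differences between groups of at most 0.17 in size, against SEs with the block of 0.09 to 0.17.

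The differences of replicate 3 in the separate groups can also be set beside each other. Across the 44 members the difference of replicate 3 from the other arrays in controls and that in RNAi-labelled arrays, which share no array, had a Pearson r of 0.868 (Spearman rho 0.726). Over the 19 members above the median r was 0.932. Over all genes, dim ones included, it was 0.578, and it was not computed for all genes above the median. These are again descriptions across genes. One exception was grl-16, which read 7.49, 8.46 and 9.63 in controls and 7.37, 8.62 and 8.37 in the RNAi-labelled arrays, so that replicate 3 was highest only in controls. The F-test gave it an adjusted p of 0.107.

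**Figure D4:**
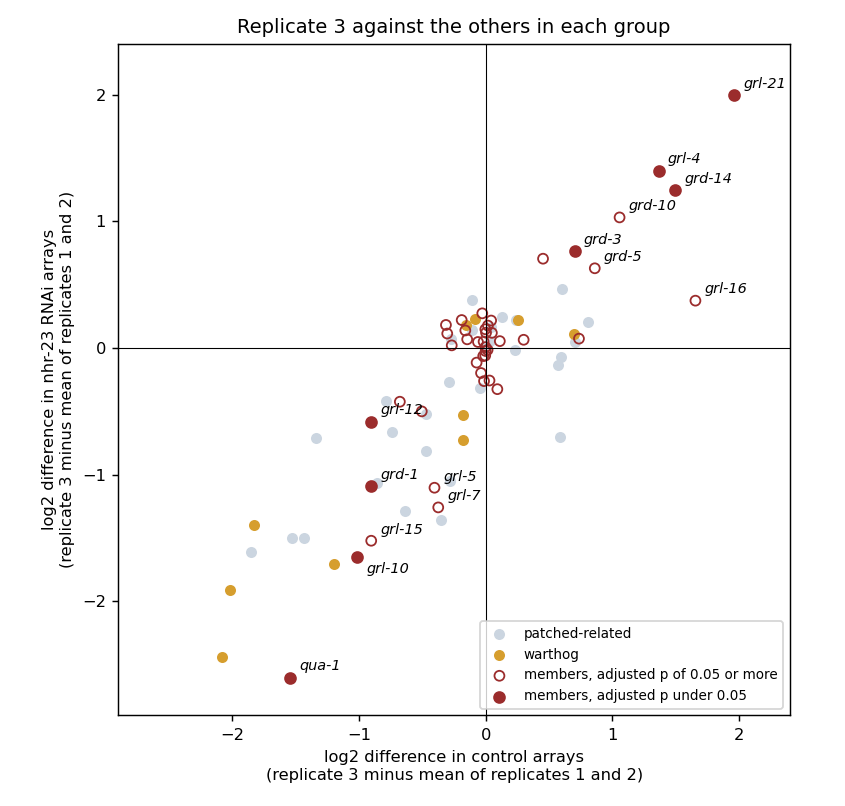
The log2 difference of replicate 3 from the mean of replicates 1 and 2 in control arrays (horizontal) and in RNAi-labelled arrays (vertical), for the members (red, filled where the F-test passed) and for warthog and patched-related genes. Members lie along the diagonal at both ends, with qua-1 at the lower left and grl-21 at the upper right, while the 3 warthog genes that passed the F-test all lie at the lower left.

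In the gene table, 6 pairs of members lie next to each other with no other protein-coding gene between them, and in 4 of these both genes were measured. The neighbours grd-3 and grd-10 were both highest in replicate 3 of each group. In the run of grl-29, grl-30 and grl-31 and in the pair grl-9 and grl-8, no gene passed either test. For grl-9 and grl-8 the groups did not overlap, in opposite directions, at 0.17 and -0.07 log2. The other genes with a second probe set (grl-7, grl-20, grl-25 and grl-29) passed neither comparison with either probe set. The brighter probe set of grl-25 read 4.08, 4.01 and 3.98 in controls and 3.77, 4.03 and 3.95 in the RNAi-labelled arrays, and the dimmer 2.93, 2.96 and 2.83, and 2.88, 3.06 and 2.97. Their log2 differences between groups, -0.11 and 0.06, had opposite signs, and the groups overlapped in both. In grl-29 the brighter read 4.16, 3.93 and 4.08 in controls and 4.22, 4.19 and 3.95 in the RNAi-labelled arrays, and the dimmer 3.85, 3.75 and 3.45, and 3.76, 3.74 and 3.86. The groups overlapped here too, with log2 differences of 0.06 and 0.10.

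The other Hedgehog-related genes are the warthogs, whose products carry a wart domain. In the RNAi-labelled arrays 8 of the 10 measured were lower, against 44.3% of all genes. The median log2 difference was -0.29, and 0 passed, as for all genes. By the F-test 3 passed, against 2.31% of all genes, and by the contrast of replicate 3 the same 3, against 3.91%. These were wrt-1, wrt-2 and wrt-10, all lower in replicate 3, by 4.79-fold, 3.90-fold and 3.06-fold (limma F-test adjusted p = 0.00749, 0.00811 and 0.00609). No warthog gene passed the F-test with replicate 3 higher, while 4 of the 44 members did, against 1.06% of all genes. Whether the families differ in this was not tested.

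Patched and patched-related genes encode sterol-sensing membrane proteins, of which Patched receives Hedgehog in other animals. They were taken as all genes named ptc- or ptr-, plus daf-6, che-14 and ptd-2. Between groups, 22 of the 29 measured (75.9%) were lower in RNAi-labelled arrays, against 44.3% of all genes. The median log2 difference was -0.07, and 0 passed, as for all genes. By the F-test of number 5 passed, against 2.31% of all genes, each lower in replicate 3, against 1.26%. By the contrast of replicate 3 alone 9 passed, against 3.91% of all genes. Of these, 8 were lower, against 1.94%, and 1 higher, against 1.97%, ptr-8 (log2 difference 0.54, limma adjusted p = 0.0395). The 5 were ptr-15 (3.32-fold), ptr-4 (2.86-fold), daf-6 (2.76-fold), ptr-10 (2.03-fold) and ptr-11 (1.95-fold), of which ptr-4 is needed for molting and daf-6 shapes the channel of sense organ glia. The largest differences between groups in the list were -0.97 log2 for daf-6 and -0.79 for ptr-10, and in the warthog list -1.12 for wrt-2 and -1.04 for wrt-4.

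In 3 of the tissue marker lists 1 gene passed the F-test of replicate number, lower in replicate 3. The other genes of these lists differed by less, in either direction. The mean of the 5 epidermis markers was 9.05, 8.93 and 8.69 in control arrays 1 to 3 and 8.77, 8.85 and 8.34 in the RNAi-labelled arrays. The cuticle collagen gene dpy-7 passed (log2 difference -1.87). Of the others, lin-26 differed by -0.28, with replicate 3 lowest in both groups, and elt-1 by -0.05. The remaining 2 of the 5, elt-3 and nhr-25, were higher in replicate 3, by 0.24 and 0.06. In RNAi-labelled arrays alone, elt-3 differed by 0.009 and nhr-25 by -0.19. Without dpy-7 the mean was 8.54, 8.49 and 8.68 in controls, highest in replicate 3, and 8.53, 8.63 and 8.40 in the RNAi-labelled arrays. Here and in the lists below, the gene left out was chosen because it passed. Leaving it out had to make the fall in replicate 3 smaller, so these means test nothing about the tissue.

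The mean of the 3 excretory duct and pore markers was 7.03, 6.86 and 6.31 in controls and 6.87, 6.36 and 6.24 in the RNAi-labelled arrays. Of these lpr-1 passed (log2 difference -1.68), aqp-8 differed by -0.09 and lin-48 by 0.26. Without lpr-1 the mean was 6.35, 6.34 and 6.32 in controls and 6.55, 5.94 and 6.44 in the RNAi-labelled arrays, lowest in replicate 3 in controls only. The mean of the 5 glia markers, which share lin-26 with the epidermis list and daf-6 with the patched-related list, was 7.69, 7.48 and 7.09 in controls and 7.35, 7.09 and 7.02 in the RNAi-labelled arrays. Of these daf-6 passed (log2 difference -1.47). Of the others, lin-26 differed by -0.28 and vap-1 by -0.16, and kcc-3 and fig-1 were higher in replicate 3, by 0.14 and 0.04. In vap-1 and fig-1 replicate 3 was lower in controls (-0.66 and -0.34) and higher in RNAi-labelled arrays (0.35 and 0.41). Without daf-6 the mean was 7.68, 7.59 and 7.38 in controls and 7.59, 7.25 and 7.54 in the RNAi-labelled arrays. In the lists for seam cells, intestine, body wall muscle, pharynx, neurons, germline and adults 0 genes passed by limma. The 5 epidermis, 5 glia and 3 duct and pore markers all lay above the median of all probe sets. Their part in the differences of the members was not tested.

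The 25 members below the median had smaller differences in both comparisons, on a scale that may understate them. Their median log2 difference between groups was 0.02, with 12 lower and 13 higher. For replicate 3 the median size of the difference was 0.08, against 0.82 for the 19 members above the median and 0.14 for all genes above it. Exceptions were grl-12, which passed the F-test (adjusted p = 0.0493), and grl-2 and grl-6, described above. Above the median, grl-27 read between 6.45 and 6.56 in all 6 arrays.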

How the data were processed

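RNA of whole larvae was labelled from 4 ug of total RNA and hybridised to 6 single-colour Affymetrix arrays, 3 per group, per the labels' protocols. The table deposited by the authors holds log2 values. The submitters' processing notes name MAS5, RMA and Partek without version or role, so how background was corrected and arrays were normalized is not stated. The fold values given are 2 to the power of differences of these log2 values. The number of arrays limits the precision.

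After removal of 77 array controls, 22548 probe sets were tested as deposited, with no filter. The platform annotation gave 1 symbol to 20766, several to 887 and none to 895 probe sets. Symbols of 20701 were updated by Entrez identifier from the WBcel235 gene table, which was used for names and neighbours only, since no source used here gives the array's build. No sequence is printed because the tables used held none. Array pairs correlated at 0.985 to 0.997, and none was treated as a duplicate.

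limma 3.58.1 in R 4.3.3 (lmFit, eBayes, 2-sided, Benjamini-Hochberg over all probe sets, threshold 0.05) was fitted with group alone, and with group and replicate number for the F-test of number and for each number against the mean of the others. The test by group alone and the F-test of number were run on simulated data with independent noise between arrays. The group test with the block was not run there. In the group test those data held no difference shared by number, so they do not show how it behaves where same-number arrays deviate together. Same-number arrays deviated together from their group means (correlations 0.58, 0.167 and 0.573 for numbers 1 to 3, all over 0.1). The numbers come from the titles, but they were taken as pairs on these values, since no label calls them pairs. Deviations from a group mean sum to 0, so the correlations are not independent of each other. The block fit and the F-test of number use the same values, so they give no separate support for the pairing. Number 2 did not stand out as a pair, since control array 2 correlated more with RNAi array 1 (0.233), and control array 1 with RNAi array 2 at 0.123. Genes given in full were hog-1, qua-1, the 8 largest falls and 4 largest rises consistent over pairs, the 4 brightest in controls, the 6 smallest F-test p and those with several probe sets. Genes named beyond that rule, such as grl-5, grl-16, grl-2 and grl-27, were chosen after their values were seen. Members, lists and tests were chosen with earlier results of these data known. Alternatives were other scalings, filters, probe set choices, an intensity trend and leaving out arrays.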

Additional observations from a re-analysis of the deposited data

How the results depend on the processing

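Between groups, no probe set passed under other scalings, the filter on dim probe sets, an intensity trend, without both replicate 3 arrays or without any 1 array (0 to 0). With the replicate block 2 probe sets passed, among them the second nhr-23 probe set, higher in the RNAi-labelled arrays (limma adjusted p = 0.037). The block changed no other call. Members lower in the RNAi-labelled arrays numbered 20 to 26 without any 1 array. Members lower in all pairs kept numbered 14 to 19 without 1 pair, the 19 coming without pair 2. Fewer pairs make this easier to meet, and the share of all genes was not computed there. With all pairs kept, the count of 11 became 9 after array medians were subtracted. It was also 9 of the 36 members left without probe sets ending in _s_at, _x_at or _r_at. The members' median difference was -0.039, -0.048 and -0.018 without both arrays of replicate 1, 2 and 3, and -0.051 to 0.020 without any 1 array, turning sign without control replicate 3. Leaving out 1 array also turned the sign in grd-1 (-0.35 to 0.32, and 0.014 without both replicate 3 arrays), grd-3 (-0.087 to 0.40), grd-10 (-0.19 to 0.51), grl-4 (-0.62 to 0.30), grl-10 (-0.78 to 0.11), grl-21 (-1.41 to 0.10), grl-29 (-0.0014 to 0.15), hog-1 (-0.32 to 0.019) and qua-1 (-1.27 to 0.15). By number, 0 to 16 members and 79 to 1304 probe sets passed without any 1 array, which leaves 1 residual degree of freedom. With no array left out, 7 members passed the F-test after array medians were subtracted and 8 after quantile normalization. The count was 7 by the mean of a gene's probe sets, 6 with only probe sets above the median and 10 with an intensity trend. The members' median for replicate 3 was -0.01, but 0.052 in RNAi-labelled arrays alone and -0.021 to 0.052 without any 1 array. Signs turned in genes with differences near 0: grd-12 (0.14 in RNAi-labelled arrays, -0.16 to 0.14 without 1 array), grl-18 (0.014 in controls, 0.0205 after quantile normalization, -0.015 to 0.014), grl-25 (0.047 in RNAi-labelled arrays, 0.015 after quantile normalization, -0.081 to 0.067) and grl-29 (0.0295 in controls, -0.26 to 0.0295). The cause of these turns was not tested. Leaving out arrays by number, pairs, and both arrays of replicate 1 or 2 was chosen after seeing the data.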
